A study of Homo sapiens with 6 samples.

Results

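DDIT4, its relative DDIT4L, the sestrins, the TSC complex, RHEB, EIF4EBP1 and DEPTOR were followed in human glioblastoma xenografts from mice given bevacizumab or saline. These 10 genes were taken by name, and all 27 probe sets that the array annotation assigns to one of them alone were used, of 54675 on the array. A probe set is the group of short probes that reads 1 transcript. The table covers 19775 genes in all.

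The tumours grew from U87-EV cells under the skin of female BALB/c SCID mice, which lack working B and T cells. U87 is an established human glioblastoma line, and what EV stands for is not given in the sources used here. The mice were 6 to 8 weeks old at implantation, and the cells were injected with Matrigel. The bevacizumab group (3 arrays) received the antibody against human vascular endothelial growth factor A at 10 mg/kg into the peritoneum every 3 days, and the control group (3 arrays) received saline. Dosing began at a tumour volume of 150 to 200 mm3 and went on until tumours were roughly 15 to 30 mm across. Both groups carried the same cells and the same host, and each began with 5 mice. Whether the arrays stand for 6 different mice is not given in the labels, so p-values here reflect only how much these arrays vary, part of which may be technical.

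mTOR complex 1 is a kinase complex that drives protein synthesis and growth when nutrients, oxygen and growth factors are plentiful. It is switched on at the lysosome by the small GTPase RHEB, and the TSC1 and TSC2 proteins keep RHEB inactive. DDIT4 (also called REDD1) restrains the pathway through TSC when oxygen or energy is short, the sestrins hold back amino acid signalling through the GATOR complexes, DEPTOR binds mTOR directly, and EIF4EBP1 is the translation repressor that mTOR complex 1 inactivates by phosphorylation. Arrays read the RNA of these genes and not the phosphorylation by which the pathway signals.

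Values are the deposited GCRMA expression values on the log2 scale, on which a difference of 1 is a 2-fold change. Genes with a mean of at least 4 over the 6 arrays were tested, each by its brightest probe set, which gave 10233 genes. All 10 members passed that filter, DEPTOR only narrowly and through the bevacizumab arrays. Groups were compared with limma, and an adjusted p under 0.05 (Benjamini-Hochberg over all genes tested) is the threshold. Differences are bevacizumab minus control.

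Of the 10 members, 3 passed the threshold: DDIT4 and DDIT4L were higher after bevacizumab and SESN3 was lower. Among all genes tested 19.1% passed, 9.09% as higher and 9.97% as lower, so a count of 3 in 10 is not far from the background. The median difference of the members, DEPTOR included, was 0.25, against -0.01 over all genes tested. The groups did not overlap in 5 members, DDIT4, DDIT4L, SESN2, SESN3 and DEPTOR, against 41.0% of all genes tested. DEPTOR reached the filter only through its bevacizumab arrays, so its separation and its share in the member median are tied to passing the filter. Neither is support. The tumours were measured whole, so fewer cells of a type and less RNA per cell cannot be told apart, and the human probes were not checked for signal from mouse cells.

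**Figure D1:**
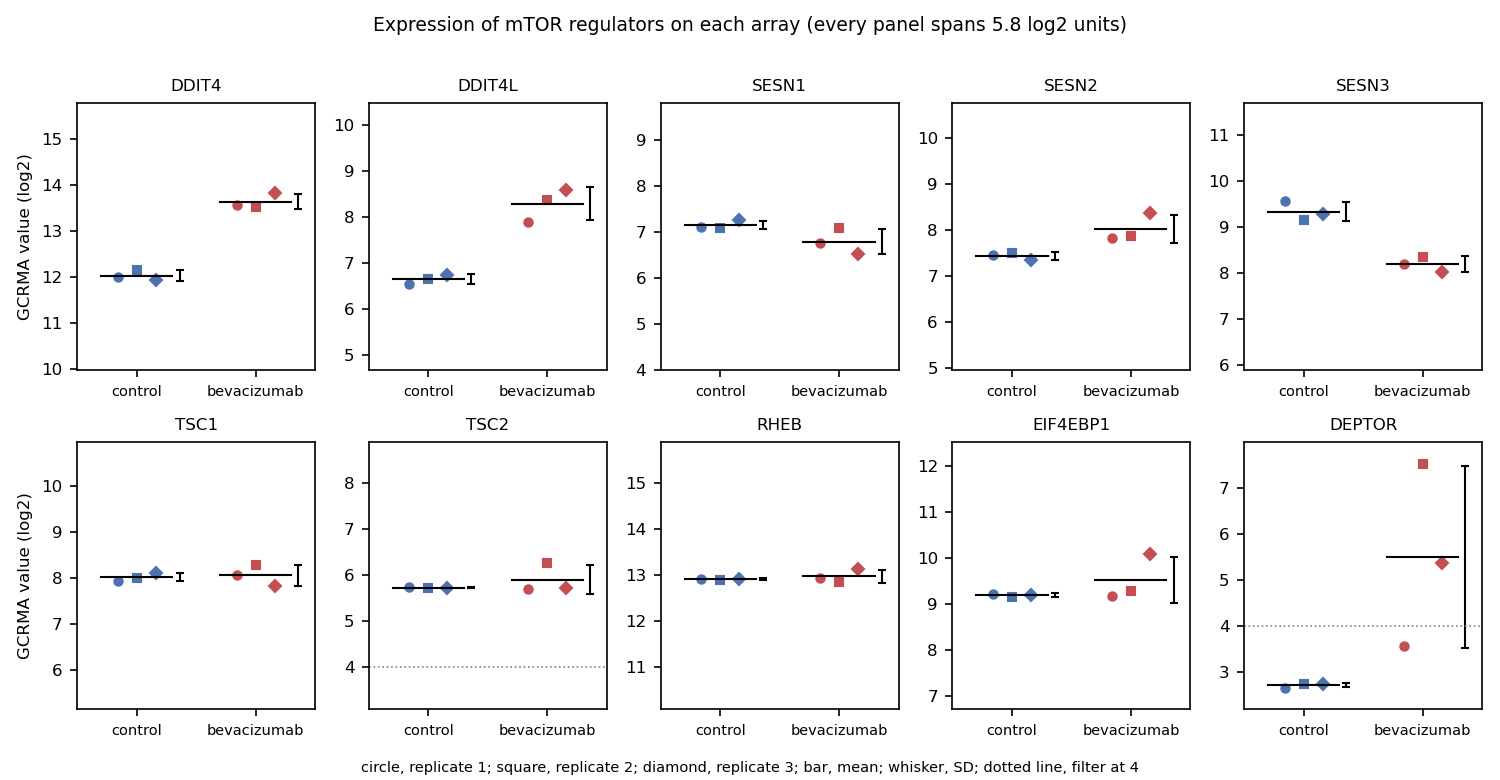
GCRMA value (log2, vertical axis) of each member's brightest probe set on the 3 control and 3 bevacizumab arrays, with the mean as a bar and the SD as a whisker. DDIT4 lies between 11.93 and 12.16 in controls and between 13.53 and 13.83 after bevacizumab, SESN3 moves the opposite way, and the DEPTOR points after bevacizumab run from 3.58 to 7.53.

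The RefSeq promoter windows of DDIT4, DDIT4L, SESN2 and SESN3 are shown because these genes differed most clearly on at least 1 probe set. That of TSC2, which did not pass the threshold, is shown because both searched motifs lie in it. Each is the 250 bases before an annotated start (GRCh38.p14), printed in the direction of transcription. Capitals mark ACGTG, the core of the element that hypoxia-inducible factors bind, and TGATGNAA, an element bound by the stress factor ATF4, each searched on both strands.
DDIT4: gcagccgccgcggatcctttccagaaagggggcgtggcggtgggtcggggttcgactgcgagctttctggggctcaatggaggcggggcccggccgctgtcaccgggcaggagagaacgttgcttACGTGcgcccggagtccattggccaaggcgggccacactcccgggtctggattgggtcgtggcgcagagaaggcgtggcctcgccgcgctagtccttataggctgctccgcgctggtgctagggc
DDIT4L: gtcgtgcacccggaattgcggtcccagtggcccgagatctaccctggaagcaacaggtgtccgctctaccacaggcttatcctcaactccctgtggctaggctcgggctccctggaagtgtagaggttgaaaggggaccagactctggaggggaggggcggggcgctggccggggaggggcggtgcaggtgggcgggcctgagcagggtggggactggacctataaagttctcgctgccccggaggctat
SESN2: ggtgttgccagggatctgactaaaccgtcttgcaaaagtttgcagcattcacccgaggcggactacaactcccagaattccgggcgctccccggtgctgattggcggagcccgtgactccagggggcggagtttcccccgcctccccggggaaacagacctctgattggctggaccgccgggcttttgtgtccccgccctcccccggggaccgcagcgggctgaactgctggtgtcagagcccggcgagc
SESN3: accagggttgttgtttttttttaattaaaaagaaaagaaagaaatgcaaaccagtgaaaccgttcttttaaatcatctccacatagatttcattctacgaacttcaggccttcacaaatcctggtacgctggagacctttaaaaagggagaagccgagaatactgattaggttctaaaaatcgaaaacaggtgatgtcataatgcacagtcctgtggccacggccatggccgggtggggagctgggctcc
TSC2: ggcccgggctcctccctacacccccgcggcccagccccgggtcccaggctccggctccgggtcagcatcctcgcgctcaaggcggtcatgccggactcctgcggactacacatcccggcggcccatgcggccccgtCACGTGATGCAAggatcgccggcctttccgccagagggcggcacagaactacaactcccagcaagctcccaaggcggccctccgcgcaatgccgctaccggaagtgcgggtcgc

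The DDIT4 window is chr10:72273674-72273923 on the plus strand, the DDIT4L window chr4:100190469-100190718 on the minus strand, and the SESN2 window chr1:28259268-28259517 on the plus strand. The SESN3 window is chr11:95232476-95232725 on the minus strand and the TSC2 window, the first of 2 annotated starts, chr16:2047735-2047984 on the plus strand. ACGTG stands once in the DDIT4 window, from base -125 to base -121 before the start. In the TSC2 window ACGTG is found on both strands, as an overlapping pair within CACGTG between bases -114 and -109, and the overlapping TGATGCAA runs from base -110 to base -103. Neither motif is in the DDIT4L, SESN2 or SESN3 windows. Of 35116 promoter windows of this length, 18.5% hold ACGTG and 3.14% hold TGATGNAA. Windows were found for 8 of the 10 members, and besides DDIT4 and TSC2 only the RHEB window holds ACGTG, from base -81 to base -77. A match is a run of letters and no evidence of binding, and elements farther out were not searched.

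DDIT4, the stress-induced inhibitor that acts through TSC, was higher on every bevacizumab array. It read 12.00, 12.16 and 11.93 on controls 1, 2 and 3, and 13.57, 13.53 and 13.83 on bevacizumab 1, 2 and 3. The lowest treated array stood well above the highest control, and the spread within each group was small. Means were 12.03 ± 0.12 and 13.64 ± 0.16 (SD, n = 3 each). The difference of 1.61 on the log2 scale (SE 0.12, limma, adjusted p = 0.00206) is 3.05-fold. This was the 39th smallest p-value among the 10233 genes and the 199th highest fold. DDIT4 has 1 probe set on the array, so no other probe set checks it.

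DDIT4L (also called REDD2), a close relative that likewise inhibits mTOR signalling and is best known from skeletal muscle, was higher by about as much. Controls read 6.54, 6.65 and 6.74, and the bevacizumab arrays 7.90, 8.37 and 8.59. The groups were more than 1 log2 unit apart at their nearest points, but the treated arrays were less tight than for DDIT4. Means were 6.65 ± 0.10 and 8.29 ± 0.35 (SD, n = 3 each). They differed by 1.64 on the log2 scale (SE 0.19, limma, adjusted p = 0.00559), which is 3.11-fold. Skeletal muscle markers were dim: all 7 of 7 with a probe set were under 4 on every array, with a mean level of 2.43 in controls and 2.35 to 2.43 after bevacizumab. These probe sets are human, so this does not show how much mouse muscle was present.

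DDIT4 and DDIT4L both passed whichever of the 6 arrays was left out. DDIT4 differed by 1.52 to 1.67 over these fits (adjusted p from 0.00585 to 0.0181) and DDIT4L by 1.49 to 1.83 (adjusted p from 0.00457 to 0.0363). A measure of RNA quality, the ACTB signal at the 3' end minus that at the 5' end, was higher on average in treated tumours. It averaged 1.38 ± 0.26 on control arrays and 1.81 ± 0.16 on bevacizumab arrays (log2, SD, n = 3 each). The groups overlapped (two-sided exact permutation p = 0.2, with 0.1 the smallest possible). With this ACTB measure as a covariate DDIT4 had a log2 fold change of 1.78 (adjusted p = 0.0503) and DDIT4L one of 1.75 (adjusted p = 0.0682), so both were as large but neither passed, and 24 genes passed in all. The same measure for GAPDH was -0.12 ± 0.02 in controls and -0.02 ± 0.03 in treated tumours (SD, n = 3 each). For GAPDH the groups did not overlap (two-sided exact permutation p = 0.1, the smallest possible). This sign of RNA quality therefore cannot be told apart from treatment on these arrays.

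Among the sestrins SESN3 fell, while SESN2 lay higher and SESN1 slightly lower with neither passing the threshold on its brightest probe set. Sestrins bind GATOR2 and so keep amino acid signals from reaching mTOR complex 1, and they also limit oxidative stress.

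SESN3, a sestrin induced by FOXO factors, read 9.56, 9.16 and 9.28 in controls and 8.20, 8.36 and 8.02 after bevacizumab on its brightest probe set. All 3 treated arrays were below all 3 controls by at least 0.8. The means of 9.33 ± 0.21 and 8.19 ± 0.17 (SD, n = 3 each) differed by -1.14 on the log2 scale (SE 0.14, limma, adjusted p = 0.00698), a 2.20-fold lower level. The call was kept in all 6 fits without an array (log2 fold change from -1.22 to -1.03) and lost with the ACTB covariate (-1.09, adjusted p = 0.0888).

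SESN3 has 7 probe sets, of which 2 were bright enough to test, and these agreed in direction. The other tested one, 235683_at, read 6.65, 6.33 and 6.19 in controls and 4.12, 4.14 and 4.13 after bevacizumab. The treated arrays stood just above the filter at 4 and were nearly identical. This probe set differed by -2.26 (SE 0.13, limma, adjusted p = 0.00313 over all 21667 probe sets tested), against -1.14 on the brightest. Among dimmer probe sets, 235684_s_at read 3.40 to 3.55 in controls and 3.00 to 3.19 after bevacizumab, and 4 others lay under 3.8 on every array with overlapping groups.

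SESN2, a sestrin induced by ATF4 and by p53, read 7.46, 7.50 and 7.34 in controls and 7.83, 7.87 and 8.37 after bevacizumab on its brightest probe set. The groups did not overlap, and bevacizumab 3 was the highest. With a difference of 0.59 (SE 0.16, limma, adjusted p = 0.0548, 95% interval 0.19 to 0.98) it missed the threshold. Its other probe set, 223196_s_at, read 5.45 on every control and 5.85, 5.99 and 6.27 after bevacizumab. It had the same difference of 0.59 (SE 0.13, limma) and an adjusted p of 0.0371 over probe sets. That call was lost in 9 of the alternative fits and kept in 3, the losses including 4 of the 6 fits without an array. Controls 1 and 2 carry the same value there, so the control spread of that probe set is very small. Averaging both probe sets gave a log2 fold change of 0.59 with an adjusted p of 0.0321 over genes, while the brightest probe set passed in 1 of the 6 fits without an array, that without bevacizumab 3 (0.41, adjusted p = 0.0469), the others giving adjusted p from 0.0516 to 0.145.

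SESN1, a sestrin best known as a p53 target, read 7.12, 7.08 and 7.26 in controls and 6.76, 7.08 and 6.54 after bevacizumab. Bevacizumab 2 was level with control 2, so the groups overlapped, while the other two treated arrays were lower than every control. On average SESN1 differed by -0.36 (SE 0.15, limma, adjusted p = 0.149, 95% interval -0.74 to 0.01). Without bevacizumab 2 it was -0.51 with an adjusted p of 0.0583.

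**Figure D2:**
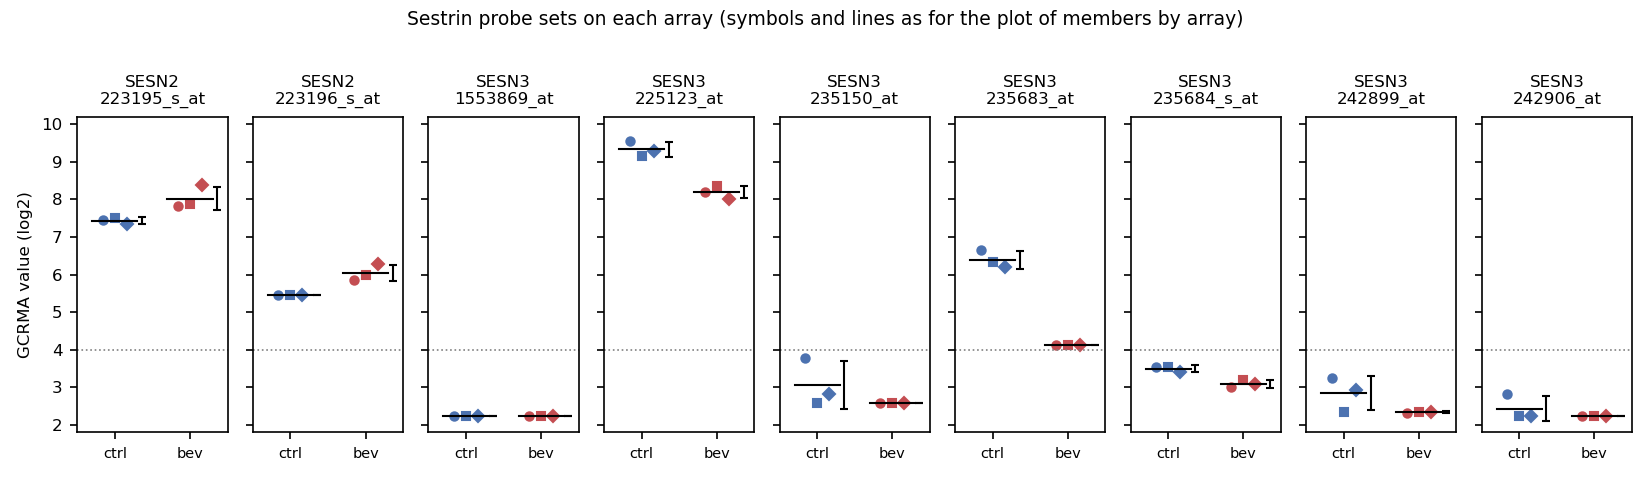
GCRMA value (log2, vertical axis) of the 2 SESN2 and 7 SESN3 probe sets on each array, controls on the left and bevacizumab on the right of each panel, with mean, SD and a dotted line at the filter of 4. Both SESN2 probe sets are higher after bevacizumab, SESN3 is lower on 225123_at and 235683_at, and the remaining SESN3 probe sets are dim on all arrays.

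The TSC complex, which turns RHEB off, showed no difference that passed the threshold in either measured gene. TSC1, which stabilises TSC2, read 7.95, 8.02 and 8.13 in controls and 8.07, 8.29 and 7.83 after bevacizumab. The treated arrays fell on both sides of the controls. TSC1 differed by 0.03 (SE 0.13, limma, adjusted p = 0.883, 95% interval -0.29 to 0.36), and the sign changed between fits, being negative after quantile normalization.

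TSC2, the subunit that makes RHEB hydrolyse its GTP, read 5.72, 5.71 and 5.71 in controls and 5.69, 6.26 and 5.71 after bevacizumab. Bevacizumab 2 alone stood apart and the other two treated arrays were at the control level. Its difference was 0.18 (SE 0.17, limma, adjusted p = 0.482, 95% interval -0.23 to 0.58), and without bevacizumab 2 it was -0.01. Its other probe set, 215624_at, was at the lowest value of the table on all 6 arrays.

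RHEB, the GTPase that activates mTOR complex 1, is covered by 9 probe sets. On the brightest, 213404_s_at, controls read 12.90, 12.88 and 12.92 and bevacizumab arrays 12.93, 12.84 and 13.12. The groups overlapped and differed by 0.06 (SE 0.10, limma, adjusted p = 0.666, 95% interval -0.17 to 0.30). None of the 6 tested RHEB probe sets passed, and their log2 fold changes ran from -0.44 to 0.06, with 2 above 0 and 4 below. The lowest, on 213409_s_at, came with the widest spread, 5.12 to 6.18 in controls and 4.45 to 6.16 after bevacizumab. The groups did not overlap on 227633_at, which read 7.19 to 7.47 in controls and 6.76 to 7.17 after bevacizumab (difference -0.33, SE 0.14, limma, adjusted p = 0.175). The other 3 probe sets were below 3 on every array.

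EIF4EBP1, the repressor that holds back cap-dependent translation until mTOR complex 1 phosphorylates it, read 9.22, 9.14 and 9.19 in controls and 9.16, 9.29 and 10.08 after bevacizumab. Only bevacizumab 3 stood clear of the controls. EIF4EBP1 differed by 0.33 (SE 0.24, limma, adjusted p = 0.381, 95% interval -0.27 to 0.92), and by 0.04 without bevacizumab 3.

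DEPTOR, which binds and inhibits mTOR in both of its complexes, had the widest spread of the 10. Controls read 2.66, 2.75 and 2.75, close to the lowest value of the table at 2.23. The bevacizumab arrays read 3.58, 7.53 and 5.38. The treated arrays were all above the controls, but they lay 3.96 log2 units apart, with bevacizumab 1 under the filter at 4 and bevacizumab 2 the highest. The difference of 2.78 had an SE of 0.92 (limma, adjusted p = 0.0855, 95% interval 0.53 to 5.02) and did not pass. All controls were under 4, and against 4 the treated mean of 5.50 ± 1.98 (SD, n = 3) is at least 2.83-fold higher, a bound that rests on bevacizumab 2 and 3. It reached the filter only through the treated arrays, so no fit of it is given as support. Without bevacizumab 1 its adjusted p was 0.0211 with limma, which is no support for the same reason. Without bevacizumab 2 or bevacizumab 3 its mean fell under the filter and it was not tested. With values under 4 set to 4 the log2 fold change was 1.64 (adjusted p = 0.209). Its other probe set, 234071_at, was at the lowest value on all arrays.

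**Figure D3:**
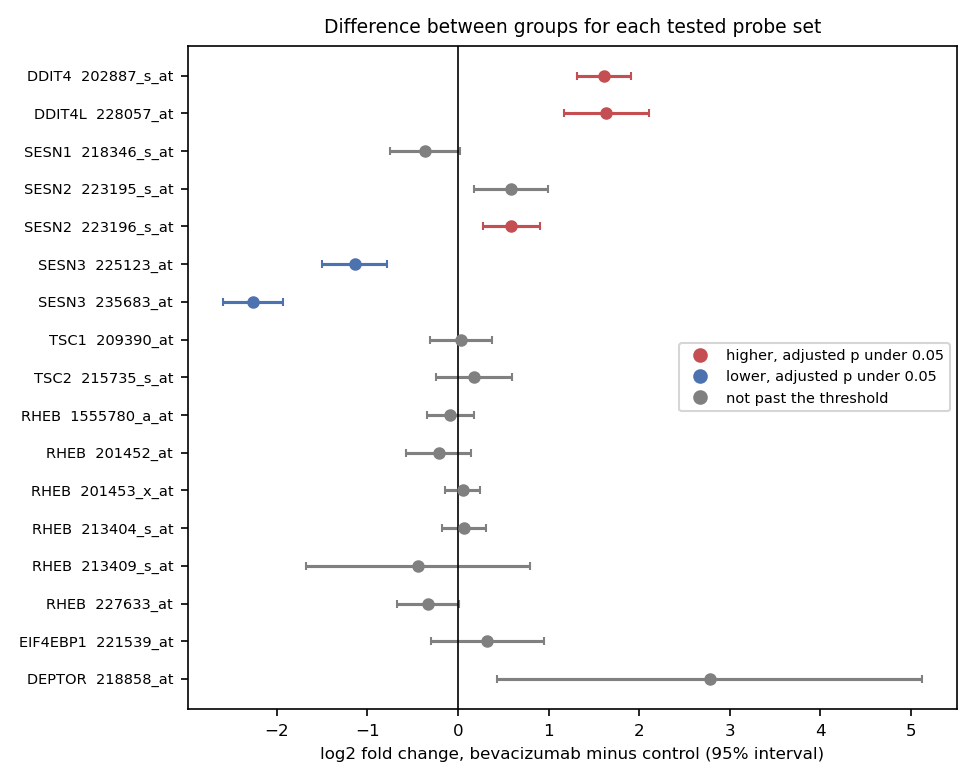
Log2 fold change (horizontal axis, bevacizumab minus control) of the 17 member probe sets that were tested, with 95% intervals from limma. 3 probe sets (DDIT4, DDIT4L and 1 of SESN2) are past the threshold as higher and 2, both of SESN3, as lower, and the interval of DEPTOR is the widest.

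Counted by probe set, 5 of the 17 tested passed, 3 higher and 2 lower. Of all probe sets tested 13.0% passed, 6.39% as higher and 6.58% as lower. The remaining 10 of the 27 were under the filter, and 3 of these were at the lowest value on every array. Within the treated group, bevacizumab 3 was the highest array for 5 members and the lowest for 3, bevacizumab 2 for 5 and 2, and bevacizumab 1 for 0 and 5. Bevacizumab 3 was highest for DDIT4, DDIT4L, SESN2, RHEB and EIF4EBP1 and lowest for SESN1, SESN3 and TSC1. Among all genes called higher, bevacizumab 3 was the highest treated array in 46.9% and bevacizumab 2 in 38.5%. Among all genes called lower, they were the lowest in 54.5% and 29.9%. No such share was taken over genes that were not called. The SD after bevacizumab was above the control SD for 9 of the 10 members, SESN3 being the exception, and for 64.8% of all genes tested.

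The core of the pathway was measured beside its brakes. For the list counts that follow, 9.09% of all genes tested passed as higher and 9.97% as lower. No list count was tested against these shares. Of 10 tested subunits and assembly factors of the mTOR complexes 1 was higher and none lower, with a median difference of -0.01. The 1 was RICTOR, the scaffold of mTOR complex 2, which rose by 0.39 (SE 0.10, limma, adjusted p = 0.0466) on its brightest probe set. That call was lost in all 6 fits without an array. All 3 of its tested probe sets shared the direction. MTOR itself and RPTOR, the scaffold of mTOR complex 1, did not pass. The MTOR probe set read 5.71 on control 2 and on every bevacizumab array (SD 0 after bevacizumab). How well it follows the level of MTOR RNA was not tested.

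Genes of the lysosomal platform to which mTOR complex 1 is recruited were called in both directions, the lower calls in few of the fits without an array. Of 11 tested Rag GTPase, Ragulator and folliculin genes 4 were higher and 2 lower, with a median of 0.33. FNIP2, a partner of folliculin, rose from 8.06 ± 0.04 to 9.31 ± 0.36 (SD, n = 3 each), by 1.25 on the log2 scale (SE 0.19, limma, adjusted p = 0.0102). The GTPase gene RRAGA rose by 0.88, the folliculin partner FNIP1 by 0.58 and RRAGC by 0.50. The Ragulator subunit gene LAMTOR2 fell by 0.44, and SLC38A9, an arginine sensor of the lysosomal membrane, by 0.51, although its 2 tested probe sets differed in direction. These calls depended on single arrays: 0 of the list passed without control 1 and 1 without control 2, against 3 to 5 in the other fits without an array. None was lower without control 1, 2 or 3 or bevacizumab 3, as LAMTOR2 lost its call in 4 of the 6 fits and SLC38A9 in 5. The median without control 1 was 0.28.

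On the GATOR arm, where sestrins act, no gene passed. Of 10 tested GATOR, KICSTOR and amino acid sensor genes 0 passed with limma, 3 had an unadjusted p under 0.05, and the median was -0.12; 1 was lower with trended variances and with the mean of probe sets. Of 14 tested kinases and partners upstream of TSC, 2 were higher and none lower, with a median of -0.01. IRS2, an adaptor of the insulin receptor, rose by 1.57 (SE 0.10, limma, adjusted p = 0.00184) and PRKAA2, a catalytic subunit of the energy-sensing kinase AMPK, by 1.48 (adjusted p = 0.0181). PRKAA2 lost its call without control 2 or bevacizumab 2. Of 14 tested targets and effectors of mTOR complex 1, 0 passed with limma and 4 had an unadjusted p under 0.05, with a median of 0.17. The 4 were the autophagy kinase gene ULK1 (1.26, SE 0.47, adjusted p = 0.111), LPIN1, which mTOR complex 1 regulates (1.01, SE 0.28, adjusted p = 0.0537), EIF4B (0.28) and EIF4E, which lay lower (-0.37). Without bevacizumab 1, 2 of the 14 passed, ULK1 and MAF1, both higher. With trended variances, a filter at 6, quantile normalization or the mean of probe sets 1 passed. LPIN1 passed in 0 of the 6 fits without an array.

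Genes of transcription factors known to act on DDIT4 or the sestrins were mostly higher. Of 10 tested, 6 rose and none fell, with a median of 0.53. EPAS1, which encodes the hypoxia-inducible factor subunit HIF-2 alpha, rose by 1.49 (SE 0.10, limma, adjusted p = 0.00196) and CEBPB by 1.22. The stress factor gene DDIT3 rose by 1.41 and ATF4 by 0.59. The glucocorticoid receptor gene NR3C1 rose by 0.70 and FOXO3 by 0.47, the last with a call lost in 5 of the 6 fits without an array. Without control 3 the count was 3.

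Lists of genes known as targets of such factors were set beside the members. All 11 tested hypoxia-response genes rose, from 0.89 for EGLN1 to 3.22 for NDRG1, with a median of 1.77. All 11 passed in each of the 6 fits without an array. DDIT4 differed by 1.61, and whether it shares a driver with any of these lists was not tested. With the ACTB covariate no gene of this or the other 9 lists passed, and the hypoxia median was 1.63. The smallest p-values of the list belonged to NDRG1, which rose by 3.22, ANKRD37 and ADM, a vasodilator peptide gene, by 2.27 each, and the transcription factor gene BHLHE40 by 1.51 (limma, adjusted p from 0.00184 to 0.00278). That hypoxia genes were higher in these tumours was known when the list was drawn up, so it is a yardstick here and no separate support. Of 12 ATF4 target genes 6 rose and 2 fell, with a median of 0.44: ATF3, VLDLR, TRIB3 and STC2 were among those that rose, and the serine synthesis genes PHGDH and PSAT1 fell by 0.90 and 0.56. Without control 1 none of the ATF4 targets was lower, without control 2 there was 1, and without control 1, 2 or 3 or bevacizumab 3 the count that rose was 4.

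Among p53 targets differences lay on both sides of 0, from -0.61 for TP53INP1 to 0.28 for PHLDA3. Of 12 tested, 0 were higher and 1, the death receptor gene FAS, was lower by 0.52 (SE 0.12, limma, adjusted p = 0.0318), while 2 had an unadjusted p under 0.05, and the median was -0.11. FAS lost its call in 5 of the 6 fits without an array. Of 11 FOXO target genes 4 rose and none fell, with a median of 0.56. These were CCNG2, an atypical cyclin (1.61), IRS2, the insulin receptor gene INSR (1.14) and KLF6 (0.41), whose call was lost in 5 of the 6 fits without an array. The other 7 of the list did not pass. SESN3 and SESN1, beside which this list was set, differed by -1.14 and -0.36, SESN1 without passing. Whether FOXO factors act on either gene in these tumours was not tested.

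**Figure D4:**
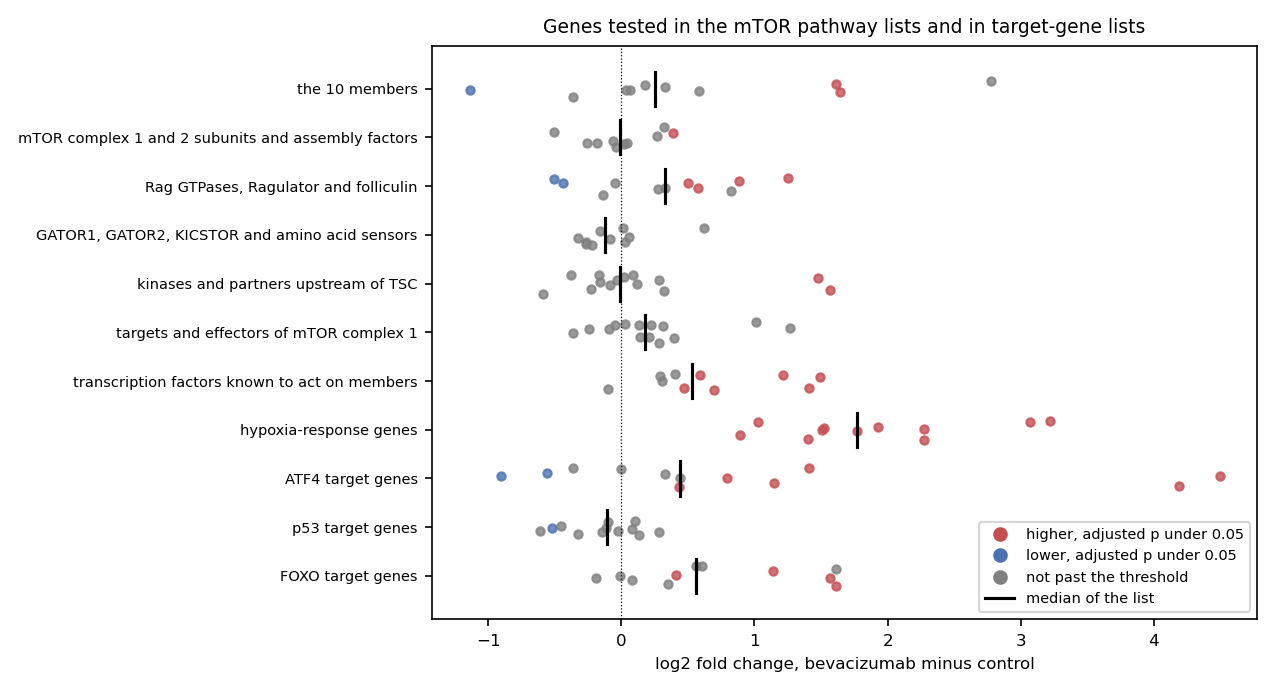
Log2 fold change (horizontal axis, bevacizumab minus control) of every tested gene in the 10 members, in 5 lists of the mTOR pathway and in 5 lists of transcription factors and target genes, with the list median as a black bar. The hypoxia-response genes all lie above 0.8, the GATOR and mTOR complex lists lie around 0, and the members run from -1.14 to the 2.78 of DEPTOR, which is no measured fold because its controls were all under 4.

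The arrays were alike in signal, with medians between 2.49 and 2.51 and profiles that correlated at 0.992 to 0.997 within groups and 0.986 to 0.993 between groups. Of 5 tested glioblastoma and glial markers 1 was higher and 1 lower: CHI3L1, a secreted glycoprotein, by 1.60 (limma, adjusted p = 0.0174, call lost without control 1, control 2 or bevacizumab 2), and NES, an intermediate filament of neural progenitors, by -1.18 (adjusted p = 0.00725, call kept in all 6 fits without an array). VIM, CD44 and TNC were bright on every array and did not pass, while the glial genes GFAP, S100B and OLIG2 were at or near the lowest value. Endothelial, macrophage and skeletal muscle markers were dim, with 8 of 10, 8 of 9 and 7 of 7 under 4 on every array. Of 8 tested mural cell markers 3 were lower after bevacizumab (RGS5, ACTA2 and KCNJ8). The other 5 did not pass: MCAM (0.42), PDGFRB (0.30) and CSPG4 (0.16) lay higher, and ABCC9 (-0.76) and NOTCH3 (-0.51) lower. The mean level of the 10 listed was 7.02 to 7.05 in controls and 6.04 to 6.61 after bevacizumab. Fibroblast markers had a mean level of 11.93 to 12.12 in controls and 12.17 to 12.36 after bevacizumab. Of 8 tested 1 was higher, the matrix protein gene DPT by 2.26 (adjusted p = 0.0105, call lost without control 1), and 1 lower, the collagen gene COL3A1 by -0.84 (adjusted p = 0.0258, call lost in 4 of the 6 fits without an array). The host was mouse and the probe sets are human, so these levels do not show how many host cells of any type were present. Which cells gave the marker signal was not tested, nor was the part of these markers in the members' values.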

How the data were processed

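Total RNA of 6 xenograft samples was measured on 1-colour Affymetrix human arrays, 1 array per sample. Per the submitters' processing notes, the authors used GCOS 1.1.1.052 and GCRMA, and the deposited values are log2 expression values, background-corrected and normalized between arrays. That the scale is log2 rests on the range of the values (up to 15.99); no scanner signals were used. Between 33.3% and 34.3% of each array's probe sets sat at the lowest value. The number of arrays limits the precision, and no batch was given in the sources used here.

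Of the probe sets, 41091 were assigned to 1 gene, and the brightest over all arrays stood for the gene. Limma 3.58.1 in R 4.3.3 (lmFit, eBayes, no covariate) was run on genes, and on all non-control probe sets, with a mean of at least 4. Listed genes with no probe set of their own were not analysed here. Where a whole group was under 4, the fold is a bound against 4. Exact permutation tests were two-sided (scipy 1.17.1). Tested on simulated data for bevacizumab against control (10233 genes, of which 200 were shifted), the fit recovered 20% of changes of 0.5 on the log2 scale, 70% of 1, 90% of 2 and 96% of 4. Of its 147 calls 9 were false. Fewer genes were shifted than the 1950 called in the data, and spreads were shuffled over genes. These rates therefore need not hold for the real comparison.

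All 10 members are described with every probe set. From each list the genes named are called ones among the 4 smallest p-values, those needed to account for counts of 5 or fewer, and a few others with their values. From the cell type markers the called ones are named, as are all 8 tested mural cell markers. MTOR, FOXO3, CD44, TP53INP1, PHLDA3, ATF4, VIM, TNC, GFAP, S100B, OLIG2, PHGDH, PSAT1, EGLN1, EIF4B, EIF4E, PDGFRB, CSPG4, MCAM, NOTCH3 and ABCC9 were picked with their values in view. The members and lists were chosen with earlier results of these data known. Control and bevacizumab samples share replicate numbers 1 to 3, but deviations of same-numbered arrays from their group means correlated at -0.10, -0.04 and -0.28, so the numbers were not taken as pairs. Other filters, a floor at 4, quantile normalization, moderated variances with a trend, the mean of probe sets, the ACTB covariate, the replicate block and fits without each array were tried.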

Additional observations from a re-analysis of the deposited data

How the results depend on the processing

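DDIT4 and DDIT4L were called in 13 of 14 alternatives and SESN3 in 12 of 13, each losing its call with the ACTB covariate. There 0 members were called by limma (4 had an unadjusted p under 0.05) and 24 genes in all. In the fits without an array 3 to 4 member genes were called. Averaging the probe sets of a gene put SESN3 under the filter. The total of 1950 genes was 598 with no filter and 559 to 2076 without an array (572, 559 and 897 without control 1, 2 or 3 and 1075 without bevacizumab 2). The total of 2810 probe sets was 389 with no filter, 0 with the ACTB covariate (4841 at an unadjusted p under 0.05) and 354 to 2735 without an array. The 5 member probe sets called became 2 with no filter, 3 with a filter at 6, 0 with the ACTB covariate and 2 to 6 without an array, the lowest without control 1. With the replicate number as a block, 904 genes and 688 probe sets passed, and 3 member genes and 3 member probe sets among them. Same-numbered arrays deviated from their group means with correlations of -0.10, -0.04 and -0.28, so the block is a check and no pairing.

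Directions changed for TSC1, TSC2 and RHEB, which passed in no fit. TSC1 was -0.022 after quantile normalization, -0.20 with the ACTB covariate and between -0.078 and 0.15 without an array. TSC2 lay between -0.0095 and 0.28 without an array. RHEB was -0.14 as a mean of probe sets and between -0.013 and 0.12 without an array. Of its single probe sets 1555780_a_at was 0.030 with the ACTB covariate, and 213409_s_at lay between -0.85 and 0.0047 without an array. The cause of these changes was not tested.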

Other observations

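The genes whose values followed a called member most closely over the 6 arrays were listed by Pearson correlation among the other 10232 genes tested. With 2 separated groups of 3 many genes come close: 324 genes reached at least 0.95 with DDIT4, 448 with DDIT4L and 296 with SESN3. Nearest to DDIT4 were WASF3, a regulator of actin (r = 0.997, n = 6 arrays), NINJ1 (0.996), which acts in membrane rupture of dying cells, and GREM1, a secreted antagonist of bone morphogenetic proteins (0.993). Nearest to DDIT4L were the cytokine gene MIF, the collagen crosslinking enzyme gene LOXL2 and TMEM45A (0.999 to 1.000). Nearest to SESN3 were the respiratory chain genes NDUFS7 (0.998) and COX6A1 (0.996) and the early response gene IER2 (0.995).

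Some deposited values, which carry up to 9 decimals, were equal to the last decimal on different arrays. Among the 21725 probe sets with a mean of at least 4, array controls included, 13.7% had the same value on at least 2 arrays, and 4 of the 17 tested member probe sets did. They include SESN1, with 1 value on control 2 and bevacizumab 2, and the dimmer SESN2 probe set, with 1 value on controls 1 and 2.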
